A study of Mus musculus with 8 samples.

Results

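The probes described here are the 168 of 39429 on the array whose design coordinates (mouse build mm9, per the file headers) fall within the T cell receptor gamma locus on chromosome 13, the joint alpha and delta locus on chromosome 14 or the beta locus on chromosome 6. They were chosen by position, and by name probes of the trypsinogen and Prss genes inside the beta locus and of olfactory receptor genes were left out. The gamma locus gave 12 probes, the alpha and delta locus 123 and the beta locus 33. The files name 149 of the 168 as T cell receptor sequence. The other 19 (11 in alpha and delta, 7 in beta and 1 in gamma) carry predicted or neighbouring gene names and are named apart. The term receptor probes below means all 168, and counts and medians by locus include these 19.

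The study hybridised RNA of mouse pro-B cells to 8 one-colour Agilent arrays, 2 for each of 4 groups. All cells came from BALB/c mice null for Rag1, were grown on OP9 stromal cells with IL-7, were transduced with a retrovirus the day after plating, and were sorted for the vector's GFP after another 4 days. Fetal liver (FL) pro-B cells, pooled from 8 embryos on average at gestation day 16, received let-7b or the empty MSCV vector. Adult bone marrow (BM) pro-B cells, from 2 mice per sort, received Lin28b in pMIG or empty pMIG. The let-7 microRNAs, of which let-7b is a member, are kept from maturing by the RNA-binding protein Lin28b. The GFP sort selects transduced cells, and both genes were driven from retroviral vectors.

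A T cell receptor chain holds variable, joining and constant segments, and in some chains diversity segments. Its variable, diversity and joining segments are joined in DNA by the Rag1 and Rag2 recombinase, which these cells lack. RNA from these loci in Rag1 null cells is therefore read from unrearranged DNA. Such germline transcripts are known to come from open variable and constant segments before rearrangement. In mice, IL-7 receptor signalling through STAT5 is known to open the gamma locus in early lymphoid cells.

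The results below turn on a small number of probes, each 60 bases long, and their sequences are given as the files hold them, with the position and strand of the array design in mm9. In the gamma locus these are the constant segment TRGC1 (chr13:19306165-19306224, plus strand), the 3′ end of a predicted gamma chain model, probe A_55_P2117081 (chr13:19396929-19396988, minus strand), and the cDNA clones that the files tie to Trgv2 (chr13:19400718-19400777, minus strand) and Trgv1 (chr13:19443911-19443970, plus strand). Capitals in the second mark its last 3 bases, a stop codon.
TRGC1: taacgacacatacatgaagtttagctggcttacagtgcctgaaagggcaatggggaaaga
A_55_P2117081: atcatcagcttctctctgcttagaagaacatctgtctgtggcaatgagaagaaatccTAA
Trgv2 clone: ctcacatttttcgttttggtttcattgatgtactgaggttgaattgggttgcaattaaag
Trgv1 clone: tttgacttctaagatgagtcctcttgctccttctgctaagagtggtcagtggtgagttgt

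The constant segments of the other chains were read by TRBC2 (chr6:41497058-41497622), TRBC1 (chr6:41489287-41489346), TRDC (chr14:54762764-54763464) and TRAC (chr14:54841802-54842701), all on the plus strand. The TRBC2, TRDC and TRAC positions are longer than a probe, so these probes cross splice junctions of the design's transcript. None of these 4 holds a marked base.
TRBC2: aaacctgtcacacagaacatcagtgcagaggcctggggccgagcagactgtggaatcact
TRBC1: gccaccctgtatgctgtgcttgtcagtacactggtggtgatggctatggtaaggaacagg
TRDC: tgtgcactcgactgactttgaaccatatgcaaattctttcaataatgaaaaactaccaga
TRAC: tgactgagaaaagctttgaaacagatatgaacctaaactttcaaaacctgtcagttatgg

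Alpha variable segments are duplicated within the locus, and probes of different copies can share most of their bases. Of the 168 probes, 43 share a run of 20 bases with another of them and 1 with a probe elsewhere on the array, so signal of near-identical copies is uncertain as to its source. The probes of LOC634184 (chr14:54050372-54050431) and Trav6d-3 (chr14:53346914-53346973), both on the plus strand, match at 58 of 60 bases, and capitals mark the bases that differ. They are shown for that likeness.
LOC634184: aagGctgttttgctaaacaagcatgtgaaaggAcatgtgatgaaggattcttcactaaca
Trav6d-3: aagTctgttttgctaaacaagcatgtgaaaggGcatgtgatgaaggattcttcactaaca

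A level below is a log2 spot signal, corrected for background, from which the 75th percentile over all spots of that array was subtracted, so 0 is the signal of a fairly bright probe, and levels are compared for the same probe only. A probe is called well above background where the scanner software marks it so. Differences are log2, with limma's standard error (SE) and a p adjusted by Benjamini-Hochberg over the 28410 probes that were well above background on at least 2 of the 8 arrays; an adjusted p under 0.05 is called a change. The labels number the 2 arrays of a group as separate replicates, and p-values measure the spread between them. An exact permutation test of 2 against 2 arrays cannot go below p = 0.333 (two-sided), so every call rests on the spread that limma shares among probes.

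The FL arrays were dimmer than the BM arrays, with a 75th percentile of 271 to 488 signal units against 1925 to 2234. The lowest level well above background was -5.65 to -4.49 on FL arrays, against -7.14 to -6.87 on BM arrays, so a dim probe can count as detected in BM and not in FL at the same level. The median SD of a probe between replicates was 0.22 with let-7b and 0.28 with empty vector in FL, against 0.07 with Lin28b and 0.08 with empty vector in BM. The pooled spread can therefore be too small for the let-7b comparison and too large for the Lin28b comparison. All BM arrays were on 1 slide, and the FL replicate numbers follow 2 other slides, each with 1 let-7b and 1 empty-vector array. Tissue, vector and slide therefore differ together between FL and BM and cannot be told apart. In bulk RNA, fewer cells of a type and less RNA per cell cannot be told apart either.

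Of the 168 probes, 49 were well above background on all 8 arrays, 59 on none, and 96 on at least 2, which were tested: 77 of 123 in alpha and delta, 13 of 33 in beta and 6 of 12 in gamma. Detection varied more between slides than between groups in alpha and delta, where 78 and 43 of 123 probes were well above background with let-7b and 71 and 53 with empty vector in FL, against 65 and 65 with Lin28b and 63 and 62 with empty vector in BM. In beta, 12 and 7 of 33 were detected with let-7b and 12 and 8 with empty vector in FL, against 8 and 9 with Lin28b and 10 and 7 with empty vector in BM. In gamma, 6 and 5 of 12 were detected with let-7b and 4 and 4 with empty vector in FL, against 5 and 6 with Lin28b and 6 and 6 with empty vector in BM. On every array most beta probes were therefore not well above background. None of the 4 gamma variable probes TRGV4, TRGV5, TRGV6 and TRGV7 could be tested.

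Between the empty-vector groups, gamma constant-region RNA was lower in FL than in BM pro-B cells, while beta constant-region RNA and most detected alpha variable segments were higher. TRGC1 fell by 2.39 and the Trgv2 clone was at least 5.77-fold lower, and TRBC2 was higher by 5.39. Of the 96 tested probes, 66 changed (68.8%), 60 higher and 6 lower. Over all probes tested 58.9% changed, 39.1% higher and 19.8% lower, and the median of all probes was itself 0.47 higher in FL. The share that changed is thus not far from the background, and the median difference of 1.64 stands beside 0.47 for all probes. By locus, 50 probes were higher and 2 lower in alpha and delta (median 1.65), 9 higher and 0 lower in beta (median 1.90), and 1 higher and 4 lower in gamma (median -1.58). Among these, 4 higher ones in alpha and delta, 1 higher in beta and 1 lower in gamma (Stard3nl) carry no receptor name. Groups did not overlap for 85 of the 96 probes, 77 higher and 8 lower in FL, against 82.6% of all probes (53.7% higher and 28.9% lower). These counts are over the probes that passed the detection filter, which favours probes high in 1 tissue.

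The size of these differences depended on the scale. With quantile scaling the median of all probes was -0.04, and 33 of the 60 higher and all 6 lower calls were kept in the same direction. With normexp background correction the median of all probes was 0.97, and 56 of the 60 higher and 3 of the 6 lower calls were kept. No probe was called in the opposite direction under either, 33 higher and 3 lower calls held under both, and those 3 lower calls were TRGC1, A_55_P2117081 and Stard3nl. The normexp offset of 50 weighs more on the dimmer FL arrays (75th percentile 271 to 488) than on BM arrays (1925 to 2234). It raises dim probes more in FL whatever their RNA. Normexp therefore favours higher over lower calls, and is no independent check of dim probes. Leaving out either empty-vector BM array lowered the higher calls to 38.

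The gamma chain constant segment TRGC1 encodes the part of the gamma chain that anchors it in the membrane. Its level was 0.74 and 0.78 with empty vector in FL, against 3.18 and 3.13 with empty vector in BM. Both FL arrays lay below both BM arrays, by more than the spread within either group. The difference was -2.39 ± 0.12 (SE; adjusted p = 0.000434), and -2.49 under both quantile scaling and normexp.

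Probe A_55_P2117081, at the 3′ end of a predicted gamma chain on the opposite strand, gave the same order of groups. Its level was 1.81 and 1.70 with empty vector in FL, against 4.05 and 3.96 with empty vector in BM, again without overlap. The difference was -2.25 ± 0.14 (SE; adjusted p = 0.000551). Which gamma constant segment this probe reads is not given in the files.

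The Trgv2 clone lies close to that probe, on the same strand. Its level was -6.53 and -6.75 with empty vector in FL, not well above background on either array, against -2.53 and -2.55 with empty vector in BM. The groups did not overlap, and RNA of the clone was at least 5.77-fold lower in FL, reckoned from the FL arrays' lowest signal well above background (fitted difference -4.10 ± 0.17 SE, adjusted p = 0.000336). With normexp, whose offset raises dim FL signals, the fitted difference was -0.42 (adjusted p = 0.573), so the call ended there.

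The Trgv1 clone was the gamma probe that went the other way. Its level was -3.33 and -3.87 with empty vector in FL, against -5.02 and -5.02 with empty vector in BM, with no overlap. The difference was 1.42 ± 0.33 (SE; adjusted p = 0.014), and 0.49 with quantile scaling (adjusted p = 0.146), where it was no longer called, nor was it without either empty-vector BM array or without empty-vector FL replicate 1 (adjusted p = 0.0594 to 0.065). Stard3nl, a lipid-binding membrane protein gene that borders the locus and is no receptor segment, was at 0.14 and -0.09 in FL, against 0.90 and 0.97 in BM (-0.91 ± 0.14 SE, adjusted p = 0.00311).

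The 5′ part of the model that A_55_P2117081 reads is covered by another probe, A_52_P200125 (chr13:19428614-19428673, minus strand), named here after its values were seen. It resembles A_55_P2162695 (chr13:19432102-19432161, plus strand), a neighbouring gamma chain model, at 49 of 53 aligned bases. Capitals mark bases that differ or do not align.
A_52_P200125: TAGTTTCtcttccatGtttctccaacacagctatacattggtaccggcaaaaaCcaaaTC
A_55_P2162695: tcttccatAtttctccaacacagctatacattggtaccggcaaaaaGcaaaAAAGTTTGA

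A_52_P200125 was dim: -7.71 and -6.11 with empty vector in FL, well above background on neither, against -6.63 and -5.99 with empty vector in BM, where it was on both. The groups overlapped. A_55_P2162695, and A_55_P2162688 at the 3′ end of a further gamma chain model, were well above background on none of the 8 arrays.

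In the beta locus the probes of both constant segments were higher in FL. Whether the TRBC2 probe also reads RNA of TRBC1 was not tested. TRBC2 encodes one of the 2 near-equal beta constant regions, and its level was -1.01 and -1.37 with empty vector in FL, against -6.28 and -6.89 with empty vector in BM, where the second was not well above background. The groups lay far apart, with a difference of 5.39 ± 0.33 (SE; adjusted p = 0.000525) and of 4.74 with quantile scaling. TRBC1, the other one, was at -2.38 and -2.82 in FL, against -5.29 and -5.20 in BM, also without overlap. Its difference was 2.64 ± 0.28 (SE; adjusted p = 0.00114), and 1.85 with quantile scaling.

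Of 24 beta variable probes 9 were tested and 6 changed, all higher in FL. TRBV5 was at -3.58 and -2.73 with empty vector in FL, against -6.82 and -6.70 in BM, where neither array was well above background, a fitted difference of 3.61 ± 0.28 (SE; adjusted p = 0.000683), and of 2.62 with quantile scaling. TRBV13-2 was at -2.46 and -2.13 in FL, against -4.58 and -4.71 in BM (2.35 ± 0.19 SE, adjusted p = 0.000753). In the same family, TRBV13-1 was higher by 1.12 ± 0.30 (SE; adjusted p = 0.0215), which quantile scaling reduced to 0.19 (adjusted p = 0.478) and which was no longer called when any 1 of the 4 empty-vector arrays was left out. The TRBV13-3 difference of 1.18 ± 0.46 (SE) was not called (adjusted p = 0.071). TRBV16 was higher by 2.95 ± 0.34 (SE; adjusted p = 0.00136) and TRBV12-2 by 1.64 (adjusted p = 0.0302). TRBV14 was well above background on 1 of the 2 FL arrays and neither BM array. Its fitted difference of 1.90 ± 0.38 (SE; adjusted p = 0.00819) thus rests mostly on signals not well above background. TRBV14 and TRBV12-2 lost the call with quantile scaling (0.67 and 0.50).

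Neither the alpha nor the delta constant segment was called between FL and BM. TRAC, at the 3′ end of the locus, was well above background on 1 array of 8, an empty-vector FL array at -4.08, and could not be tested; its other levels were -7.80 and -6.95 with let-7b and -7.80 with empty vector in FL, against -8.22 and -8.20 with Lin28b and -9.10 and -8.77 with empty vector in BM. TRDC was at -6.65 and -6.72 with empty vector in FL, not well above background on either array, against -6.10 and -5.52 with empty vector in BM, where both were. The TRDC groups did not overlap, but the difference was not called (-0.88 ± 0.38 SE, adjusted p = 0.0964), and its direction depends on the scale. It was -2.53 with quantile scaling (adjusted p = 0.00633) and 1.59 with normexp, and it was called lower without either let-7b array (adjusted p = 0.0244).

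Of 109 alpha and delta variable probes 69 were tested, 46 were higher in FL, 2 lower, and the other 21 were not called. Trav2, a single-copy segment near the 5′ end of the locus, stood well above background on all 8 arrays. Its level was 0.47 and 0.22 with empty vector in FL, against -1.72 and -1.61 with empty vector in BM (2.01 ± 0.20 SE, adjusted p = 0.000978), and the difference was 1.88 with quantile scaling. The largest differences between probes well above background on all 4 arrays were Trav12d-3 (3.73 ± 0.28 SE, adjusted p = 0.000631), a Trav13n-3 probe (3.50 ± 0.26 SE, adjusted p = 0.000624), Trav13n-1 (3.38 ± 0.50 SE, adjusted p = 0.00297) and Trav7d-3 (3.24 ± 0.17 SE, adjusted p = 0.000435). TRDV1, a delta variable segment, was at -3.78 and -4.51 with empty vector in FL, well above background on 1 of the 2 arrays, against -7.43 and -7.11 with empty vector in BM, where neither was. Its fitted difference was 3.12 ± 0.57 (SE; adjusted p = 0.00576), which rests mostly on signals not well above background, and 2.03 with quantile scaling (adjusted p = 0.0384). The called variable probes lay between TRAV1, 1793 kb upstream of the TRAC probe, and TRDV1, 340 kb upstream of it.

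The 2 lower probes both read Trav3d-3. The probe A_55_P2184704 was at -1.75 and -1.73 with empty vector in FL, against -0.65 and -0.64 with empty vector in BM. A_55_P2028904, a little upstream, was at -2.32 and -2.12 in FL, against -1.18 and -1.07 in BM. Both probes were without overlap and fell by 1.10 (adjusted p = 0.0113 and 0.0141); quantile scaling kept both calls, and normexp ended both, as did leaving out either empty-vector BM array (adjusted p = 0.057 and 0.0578 for A_55_P2184704). Without empty-vector FL replicate 1 the call of A_55_P2028904 ended as well. The sequence of A_55_P2184704 (chr14:53592880-53592939, plus strand) is given because it went against the other alpha segments, beside that of Trav2 (chr14:53187670-53187729, plus strand), with no base marked.
Trav3d-3: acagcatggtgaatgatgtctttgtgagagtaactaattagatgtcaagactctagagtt
Trav2: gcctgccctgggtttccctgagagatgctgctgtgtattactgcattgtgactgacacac

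By segment family, all 4 tested TRAV9 probes were higher in FL, as were 10 of 12 TRAV13, 6 of 7 TRAV7, 4 of 5 TRAV6, 3 of 4 TRAV15, 3 of 5 TRAV12 and 1 of 5 TRAV14 probes. Of 3 tested TRAV3 probes, 0 were higher and 2 lower. Over all probes tested 39.1% were higher and 19.8% lower. With quantile scaling 1 of the 4 TRAV9 probes, 6 of the 10 TRAV13, 5 of the 6 TRAV7, 3 of the 4 TRAV6, 0 of the 3 TRAV15 and 1 of the 3 TRAV12 probes were still called higher, and so was the TRAV14 probe. Probes of a family can share sequence, so these counts are not of independent signals. LOC634184 and Trav6d-3, the pair that match at 58 of 60 bases, gave differences of 0.29 and 0.33, neither called.

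The TRAV13 and TRAV15 families differed between the 2 empty-vector FL arrays, which lie on different slides. Replicate 2 minus replicate 1 had a median of 1.83 over the 4 TRAV15 probes and of 1.29 over the 12 TRAV13 probes, against 0.01 over all probes tested. With let-7b the same difference was 1.03 for TRAV15 and 0.37 for TRAV13, against -0.07 for all probes. A TRAV15D-1 probe, A_66_P101921, was at -1.08 and 0.70 with empty vector in FL, against -2.23 and -2.18 with empty vector in BM (2.02 ± 0.62 SE, adjusted p = 0.0338). The FL spread of that probe is nearly as large as its distance to BM, and quantile scaling ended the call (adjusted p = 0.068), as did leaving out any BM array or empty-vector FL replicate 2 (1.13 without that array).

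Among the 19 probes without a receptor name, 9 were tested, and 5 were higher and 1 (Stard3nl) lower in FL. Gm4320, in the alpha locus, was higher by 1.28 ± 0.25 (SE; adjusted p = 0.00714), and Gm10334, in the beta locus, by 1.66 ± 0.42 (SE; adjusted p = 0.0178), a call that quantile scaling ended (adjusted p = 0.089). Gm13907 was higher by 1.29. Gm4361 and LOC100043972, in the alpha and delta locus, were well above background on neither BM empty-vector array, and Gm4361 on only 1 of the 2 FL ones. LOC100043972 was at least 6.74-fold higher. The fitted difference of Gm4361 was 2.85 ± 0.28 (SE; adjusted p = 0.000995), which rests mostly on signals not well above background. With quantile scaling the differences were 1.55 for Gm4361 and 1.90 for LOC100043972.

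Genes of other cell types and pathways are given beside the receptor probes, and their counts stand beside the 39.1% higher and 19.8% lower of all probes. Of 14 tested T cell and CD3 complex markers 7 were higher and 4 lower in FL. The higher ones included Cd3e, a signalling chain of the receptor complex (3.56), and the coreceptor Cd4 (2.49). Cd8a, another coreceptor chain, and Ptcra, the pre-T cell receptor alpha chain, were well above background on neither BM empty-vector array. Cd8a was at least 14.5-fold higher. Ptcra was well above background on 1 of the 2 FL arrays. Its fitted difference of 2.83 ± 0.57 (SE; adjusted p = 0.00798) rests mostly on signals not well above background. Lck, higher by 0.40 (adjusted p = 0.0497), and Zap70, Lat, Lcp2 and Cd5, which were lower, are signalling and surface proteins shared with other lymphocytes. Cd3d, another chain of the complex, was not called (-0.05, adjusted p = 0.955). It was well above background on both BM empty-vector arrays and neither FL one. Cd3g and Trat1 were well above background on no array. The summed linear level of the list was 14.4 to 21.2 in FL, against 7.95 to 8.26 in BM, with empty vector.

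Of 9 tested NK and innate lymphoid markers 7 were higher and 0 lower, including the granule proteins Prf1 (2.00) and Nkg7 (1.54) and the transcription factor Eomes (3.02, well above background on 1 of the 2 BM arrays), with a summed level of 2.93 to 3.09 in FL against 0.864 to 1.01 in BM. Il2rb, Tbx21 and Rora, also among the 7, were well above background on neither BM empty-vector array and on 1 of the 2 FL ones. Klrb1c, another of the 7, was so on 1 of the 2 FL arrays. Of 9 myeloid markers 3 were higher and 1 lower, and their sum was 29.3 to 64.3 in FL against 9.69 to 10.4 in BM. Most of that sum was 1 probe, of the integrin Itgam, at log2 levels of 5.80 and 4.10 in FL against 3.05 and 3.13 in BM, which was not called (adjusted p = 0.0537). Of 10 stromal markers 1 was higher and 5 lower, with a sum of 5.94 to 7.93 in FL against 17.5 to 19.1 in BM. Of 11 pro-B markers 7 were higher and 0 lower, and their sum was 1217 to 1595 in FL against 537 to 586 in BM, so both groups carried the labelled cell type's RNA. The part of these other cell types in the receptor signals was not tested.

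Of 21 tested transcription factors and Notch pathway genes of the T lineage, 7 were higher and 5 lower in FL (median 0.32), shares close to those of all probes. The higher ones included Notch3, a Notch receptor (4.44), Zbtb16, a factor of innate-like T cells (3.90), and Sox13, a factor of gamma delta T cells (2.15), and the lower ones Id2 (-1.03), Myb (-0.98), Tcf12 (-0.90) and Lef1 (-0.80). Tox, also lower, was well above background on neither FL empty-vector array, and was at least 3.25-fold lower. Of 13 genes of the IL-7 receptor and STAT5 pathway 8 were higher and 3 lower (median 0.80), with Bcl2 (1.74), Jak3 (1.71), Il7r (1.10) and Stat5b (0.90) higher and Stat5a (-0.54) lower. All these medians stand beside 0.47 for all probes.

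With let-7b in FL, 1 of the 96 tested probes changed, the Trgv2 clone of the gamma locus, and it was higher than with empty vector. TRGC1 and A_55_P2117081, also in gamma, lay above empty vector by 1.18 and 1.22 without passing the test. Over all 28410 probes 7 changed (0.0246%), 5 of them higher (0.0176%) and 2 lower (0.00704%). At an unadjusted p under 0.05, 10 of the 96 passed, against 9.64% of all probes. The median difference was -0.15 over the 96 probes and -0.05 over all probes, and by locus it was 0.62 in gamma, -0.15 in alpha and delta, and -0.39 in beta. The let-7b comparison and that between FL and BM share the 2 empty-vector FL arrays, so the same arrays set both differences.

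The Trgv2 clone was at -4.25 and -3.92 with let-7b, well above background on both arrays, against -6.53 and -6.75 with empty vector. Both let-7b arrays lay above both empty-vector arrays and below the -2.53 and -2.55 of BM cells with empty vector. Its RNA was at least 1.98-fold higher with let-7b (fitted difference 2.55 ± 0.17 SE, adjusted p = 0.0465). Within slides the difference was 2.27 and 2.83, and with the slide as a replicate block the adjusted p was 0.169. The call was near the threshold: the adjusted p ran from 0.0149 to 1.00 over the alternatives, and it passed with limma's trended and robust prior and without empty-vector FL replicate 1 only. It ended when any other single array was left out (adjusted p = 0.0913 to 0.302). With normexp the difference was 1.04, beside a median of 0.36 for all tested probes, and it was 0.68 in the normalized values that the authors deposited.

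The constant segment TRGC1 and the model probe A_55_P2117081 were apart from empty vector on both slides. TRGC1 was at 1.94 and 1.95 with let-7b, against 0.74 and 0.78 with empty vector, a difference of 1.18 ± 0.12 (SE) that was not called (adjusted p = 0.0704, and 0.222 with the block). Within slides it was 1.20 and 1.17. It passed with quantile scaling (adjusted p = 0.0438) and without empty-vector FL replicate 1 (adjusted p = 0.0408). A_55_P2117081 was at 3.10 and 2.84 with let-7b, against 1.81 and 1.70 with empty vector, a difference of 1.22 ± 0.14 (SE; adjusted p = 0.0974, and 0.22 with the block), with 1.29 and 1.15 within slides. Neither probe's groups overlapped, and the let-7b levels of both lay below those of BM cells. Trgv1 did not share this pattern, with -3.09 and -4.00 with let-7b against -3.33 and -3.87 with empty vector, and the groups overlapped.

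Outside gamma no probe was called. TRBC2 was at -2.09 and -2.88 with let-7b, against -1.01 and -1.37 with empty vector, without overlap (-1.29 ± 0.33 SE, adjusted p = 0.328), and the difference was -1.08 and -1.51 within slides. TRBC1 was at -2.65 and -3.38 with let-7b, against -2.38 and -2.82, and its groups overlapped (-0.42, adjusted p = 0.706). Trav14n-1 was at -1.86 and -1.89 with let-7b, against -0.46 and 0.29 with empty vector (-1.79 ± 0.25 SE, adjusted p = 0.131), and the related Trav14d-2 differed by -1.34 (adjusted p = 0.312), neither of them called. Trav2 was at 0.43 and -0.02 with let-7b, against 0.47 and 0.22, with overlap.

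Groups did not overlap for 17 of the 96 probes (17.7%), 3 higher and 14 lower with let-7b, against 29.9% of all probes (11.8% higher and 18.2% lower). The 3 higher ones were TRGC1, A_55_P2117081 and the Trgv2 clone. Between slides, 10 of the 96 differences were above 0 on both, 29 below 0 on both, and 57 had opposite signs. The same counts over all probes are not given here. Summed stromal markers were 8.15 to 12.7 with let-7b against 5.94 to 7.93 with empty vector, and T cell markers 12.6 to 13.5 against 14.4 to 21.2. No gene of the marker or pathway lists was called with let-7b. The part of stromal RNA in the gamma differences was not tested.

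With Lin28b in BM no receptor probe changed, and the 3 gamma probes described with let-7b lay slightly below empty vector without a call. Over all probes 1 changed (0.00352%), a higher one. At an unadjusted p under 0.05, 4 of the 96 passed, against 3.46% of all probes: Gm4361 (-0.99), the Trgv2 clone, Trav7d-3 (-0.39) and TRGC1. The differences were below 0 for 78 of the 96 and above 0 for 18, with a median of -0.24 beside -0.04 for all probes. The share of all probes below 0 is not given here, and probes that share sequence are not independent. The Lin28b comparison and that between FL and BM share the 2 empty-vector BM arrays.

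TRGC1 was at 2.90 and 2.73 with Lin28b, against 3.18 and 3.13 with empty vector, without overlap (-0.34 ± 0.12 SE, unadjusted p = 0.0368, adjusted p = 1.00). A_55_P2117081 was at 3.73 and 3.61 with Lin28b, against 4.05 and 3.96, also without overlap (-0.34 ± 0.14 SE, adjusted p = 1.00). The Trgv2 clone was at -3.01 and -3.20 with Lin28b, against -2.53 and -2.55 (-0.56 ± 0.17 SE, adjusted p = 1.00). These gaps exceed the spread of both groups but do not pass the test over all probes.

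The constant segments of the other chains did not separate clearly by Lin28b. TRBC2 was at -6.33 and -6.42 with Lin28b, against -6.28 and -6.89 with empty vector, and TRBC1 at -5.37 and -5.23, against -5.29 and -5.20, both with overlap. TRDC was at -5.02 and -5.09 with Lin28b, against -6.10 and -5.52, without overlap (0.75, adjusted p = 1.00). Trav2 was at -1.96 and -1.80 with Lin28b, against -1.72 and -1.61, without overlap, a difference of -0.21.

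Groups did not overlap for 46 of the 96 probes (47.9%), 6 higher and 40 lower with Lin28b, against 51% of all probes, 17.8% higher and 33.3% lower. Stromal markers summed to 24.9 to 34.6 with Lin28b, against 17.5 to 19.1 with empty vector, and T cell markers to 8.31 to 8.51, against 7.95 to 8.26. No gene of the lists was called. The part of the stromal RNA in the lower receptor levels was not tested.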

How the data were processed

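The 8 scanner files hold spot intensities that Agilent Feature Extraction corrected for background before the authors deposited them, per the file headers. A further table that the authors deposited holds log2 values normalized in a way not stated; its slope on the scanner signals (0.950 to 0.990) gives the scale, its median per column was 7.22 in BM and 6.16 in FL, and its centring is unknown, so it served as an alternative within a tissue only. Probe names come from the files, or from a RefSeq gene table by accession or synonym.

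From each log2 processed signal, the 75th percentile over the 43020 non-control spots of its array was subtracted. Outlier spots were left out and copies averaged; 31 probes, none of them in these loci, had no spot left on some array. Of the rest, 10988 were well above background on fewer than 2 arrays, and 28410 were tested. limma 3.58.1 in R 4.3.3 fitted 1 mean per group over all 8 arrays (4 residual and 1.72 prior degrees of freedom), with Benjamini-Hochberg adjustment over all tested probes. The fit was tested on simulated data. A bound ("at least") is the ratio of the bright group's mean to the other group's, where a signal under the array's lowest one well above background is raised to that one. It holds for the 75th percentile scaling only. The number of arrays limits the precision.

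Deviations of same-numbered arrays correlated at 0.51 in FL, where the number follows the slide, and at -0.06 in BM, where all arrays share a slide. Alternatives were normexp (offset 50), quantile scaling, no filter, the authors' table, a replicate block, a trended and robust prior, a single tissue's arrays and leaving out each array. The probes named are those called, the constant segments and the 5 brightest of each locus, not all of which are printed. Members and lists were chosen with earlier results of these data known.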

Additional observations from a re-analysis of the deposited data

How the results depend on the processing

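The number of arrays and, for dim probes, the brightness of the FL arrays limit these results. Calls between FL and BM kept their direction under every alternative in which they were called.

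Of the receptor probes, 60 were called higher in FL than in BM; 33 were with quantile scaling, 104 with no filter on dim probes, 68 with normexp, and 38 to 66 when single arrays were left out. Lower calls were 6, against 3 with normexp and 11 with quantile scaling, and 4 to 7 without single arrays. Over all probes the tissue calls were 16734, and 10932 to 17464 without single arrays. These all-probe calls were 14689 with quantile scaling, 11968 with normexp, and 23400 of 39398 with no filter.

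With let-7b, 1 receptor probe was called higher, against 0 with normexp, no filter, the authors' table, the replicate block (adjusted p of the Trgv2 clone 0.169) and the FL arrays alone, 1 with quantile scaling (TRGC1 in place of the Trgv2 clone), 3 with the trended and robust prior, and 0 to 3 without single arrays. Lower calls were 0, against 1 with the trended and robust prior and 0 to 1 without single arrays. Over all probes 7 were called with let-7b, against 0 with normexp, no filter, the authors' table, the replicate block and the FL arrays alone, 77 with quantile scaling, 89 with the trended and robust prior, and 0 to 625 without single arrays. With Lin28b 1 was called over all probes, against 0 with normexp and the replicate block, 4 with quantile scaling and with the authors' table, 2 with the trended and robust prior and with the BM arrays alone, and 0 to 1 without single arrays; receptor calls with Lin28b were 0 under all of these.

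The looser scanner flag (signal positive and significant) raised the mean number of detected probes per array. In alpha and delta it gave 91.5 with let-7b and 95.5 with empty vector in FL, against 96.5 with Lin28b and 97 with empty vector in BM (60.5, 62, 65 and 62.5 by the stricter flag). In beta it gave 17, 19.5, 18.5 and 17 in that order, and in gamma 8.5, 8, 10 and 11.

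The difference between groups in the median level of all probes of a locus also moved. Between FL and BM it was 1.57 in alpha and delta, and 0.37 with quantile scaling, 2.04 with normexp and 1.80 over the tested probes. In beta it was 2.15, and 0.67 with quantile scaling. In gamma it was 0.20, and turned to -1.14 with quantile scaling and to -0.98 over the tested probes, with 1.93 under normexp. With let-7b it was -0.19 in alpha and delta (0.77 with normexp), -0.66 in beta (turned to 0.80 with normexp, -0.41 over the tested probes) and 0.80 in gamma (1.00 with quantile scaling, 0.050 over the tested probes). Single-probe differences over all 39398 probes with no filter stand beside these locus values. Their median was 1.01 between FL and BM, and -0.08 with let-7b. Under normexp the median over the tested probes was 0.97 between FL and BM, and 0.36 with let-7b. On every array the median level in beta lay below the lowest level well above background. The median level in gamma did so on both empty-vector FL arrays. Such medians describe signals near the floor, which lies higher on FL arrays. The causes were not tested.

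Of the single probes that turned sign, Trav4d-3 was called between FL and BM (0.91, and -0.17 with quantile scaling), and the others were not called with the 75th percentile scaling. TRDC turned to 1.59 between FL and BM with normexp, and was called lower with quantile scaling (-2.53) and without either let-7b array (adjusted p = 0.0244). With normexp, let-7b differences turned for TRBC1 to 0.44, TRBV13-2 to 0.39, TRBV13-1 to 0.64 and TRBV13-3 to 0.68, beside a median of 0.36 for all tested probes. With Lin28b, normexp turned TRBC2 to -0.0088 and TRBV13-2 to -0.036. Without single arrays, let-7b differences ran from -0.24 to 0.86 for TRDC, -0.37 to 0.082 for Trav2, -0.15 to 0.56 for Trav3d-3 (A_55_P2184704), -1.22 to 0.55 and -1.35 to 0.54 for the TRAV15D-1 probes, -0.69 to 0.42 for TRAV13D-2, -0.88 to 0.045 for TRBV13-1, -0.69 to 0.44 for TRBV13-3 and -0.40 to 0.50 for Trgv1. Lin28b differences ran from -0.12 to 0.015 for TRBC1, -0.10 to 0.52 for TRBC2 and -0.11 to 0.17 for TRBV13-2.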
